A study of Homo sapiens with 21 samples.

Results

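The 9 genes described here encode enzymes of pyrimidine and deoxynucleotide synthesis: CAD, DHODH and UMPS, which make UMP, CTPS1, which makes CTP, and RRM1, RRM2, TYMS, TK1 and DUT, which supply the deoxynucleotides used in S phase. They were taken by symbol from the 34021 genes of the RNA-seq table, in which all 9 were found. The RNA-seq libraries, 9 in number, were made after 8 days of culture from H1975, an established line of human lung adenocarcinoma cells with mutated EGFR. The group OC (3 libraries) had 500 nM osimertinib, which binds mutant EGFR covalently and blocks its kinase, with overexpression of cIGF1R, a circular RNA of the IGF1R gene. The group OL+EV (3 libraries) had 500 nM osimertinib, 500 nM linsitinib, an inhibitor of the IGF1R and insulin receptor kinases, and EV, a label that is not spelled out. The group DMSO+EV (3 libraries) had vehicle and EV. Osimertinib was thus present in both treated groups. Osimertinib with EV but without linsitinib was not among the RNA-seq groups analysed here, so OC differed from DMSO+EV in both drug and circular RNA, and from OL+EV in both linsitinib and circular RNA. The 12 circular RNA libraries of the series were not analysed here.

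Pyrimidine synthesis begins in the cytosol, where CAD carries out the opening steps on one polypeptide. DHODH, in the inner mitochondrial membrane, oxidises dihydroorotate to orotate, and UMPS turns orotate into UMP, from which all other pyrimidine nucleotides derive. Deoxynucleotides are made from ribonucleotides by ribonucleotide reductase, and the S-phase enzymes are known in dividing cells for expression that is tied to the cell cycle, with E2F factors among their regulators, whereas CAD is known as a target of MYC.

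The deposited values are read here as FPKM, fragments scaled to gene length and library size, because the file names no unit and its column totals differed between libraries, from 338034 to 381311 in OC, 423319 to 432563 in OL+EV and 429553 to 474156 in DMSO+EV. Read depth is unknown, so no counting interval can be given. The labels leave unsettled whether RNase R, an enzyme that degrades linear transcripts, was used before these libraries were made, in which case mRNA levels would also depend on resistance to it. Separate cultures are not stated for the replicates, and p-values here reflect library-to-library spread alone, possibly technical. IGF1R, whose exons cIGF1R shares, was at 81.4, 82.3 and 100.9 FPKM in OC, against 4.41, 3.56 and 3.73 FPKM in OL+EV and 3.76, 4.41 and 4.23 FPKM in DMSO+EV. The table has no value for the circular junction itself. The summed level of 5 epithelial markers, led by the keratin KRT8, was 10781 to 13350 FPKM in OC, 10978 to 11999 in OL+EV and 9046 to 9951 in DMSO+EV, whereas those of the fibroblast, leukocyte and endothelial markers were at most 6.05 FPKM in any library. The sum of the 3 endothelial markers was 0.736 to 0.955 FPKM in OC, 0.135 to 0.207 FPKM in OL+EV and 3.55 to 4.08 FPKM in DMSO+EV, so it was highest where the enzymes were highest. Most of it was CDH5, which averaged 0.482 FPKM in OC, 0.114 FPKM in OL+EV and 3.37 FPKM in DMSO+EV. PECAM1 had the same order of means, 0.255 FPKM in OC, 0.0303 FPKM in OL+EV and 0.347 FPKM in DMSO+EV, and was at most 0.395 FPKM. VWF was highest in OC, and at most 0.158 FPKM in any library. The sum of the 3 fibroblast markers in the table was 5.53 to 6.05 FPKM in OC, 3.20 to 3.54 FPKM in OL+EV and 3.35 to 3.70 FPKM in DMSO+EV, nearly all COL1A1. The part of these markers in the results was not tested. One DMSO+EV library, replicate 2, stood apart in short RNA polymerase III transcripts, with RN7SL1 at 443 FPKM against 46.4 and 36.1 FPKM in its group. In OC, replicate 1 had RN7SL1 at 53.2 FPKM, against 3.16 and 6.37 FPKM in the others.

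The stretches just upstream of annotated starts of 6 members are printed. They were chosen in part by the words they hold, so they give no comparison of the S-phase enzymes with the UMP enzymes. Each is the 120 bases before a RefSeq start (GRCh38.p14), read 5′ to 3′ in the direction of the gene. Capitals mark CCAAT, on either strand (ATTGG on the opposite one), in RRM2 and TK1, and the E2F-type 8-mers TTTGGCGC or TTTCCCGC (GCGGGAAA on the opposite strand) in DUT and TYMS. CAD and UMPS held neither, whereas DHODH, the other UMP enzyme, held a CCAAT and is not printed.
RRM2, chr2:10122619-10122738, + strand: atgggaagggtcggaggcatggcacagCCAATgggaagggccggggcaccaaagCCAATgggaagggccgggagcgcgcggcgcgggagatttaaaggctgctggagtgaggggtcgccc
TK1, chr17:78187053-78187172, - strand: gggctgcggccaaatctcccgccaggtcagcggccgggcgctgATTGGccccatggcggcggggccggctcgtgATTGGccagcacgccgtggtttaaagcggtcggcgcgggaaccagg
TYMS, chr18:657533-657652, + strand: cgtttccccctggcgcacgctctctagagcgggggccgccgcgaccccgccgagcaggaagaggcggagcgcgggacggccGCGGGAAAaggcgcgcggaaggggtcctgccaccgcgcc
DUT, chr15:48332077-48332196, + strand: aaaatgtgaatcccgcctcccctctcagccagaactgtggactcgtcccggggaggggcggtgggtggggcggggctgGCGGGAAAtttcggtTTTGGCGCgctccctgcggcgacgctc
CAD, chr2:27217249-27217368, + strand: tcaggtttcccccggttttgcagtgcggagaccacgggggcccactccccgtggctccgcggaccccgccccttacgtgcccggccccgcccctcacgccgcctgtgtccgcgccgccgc
UMPS, chr3:124730332-124730451, + strand: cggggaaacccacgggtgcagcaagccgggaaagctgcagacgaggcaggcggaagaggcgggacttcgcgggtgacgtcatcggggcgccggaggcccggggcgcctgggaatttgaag

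RefSeq lists 15 starts for the 9 members. RRM2 has 2 starts, TK1 has 2 and DUT has 4, and the windows shown are those with a CCAAT or an E2F-type word. In RRM2 the pair of CCAAT boxes began 93 and 66 bases before the start, and in TK1 a pair on the opposite strand began 77 and 46 bases before it. DUT had its E2F-type words 42 and 27 bases before the start, and TYMS had 1, at 39 bases. RRM1 and DHODH each held 1 CCAAT, 28 and 22 bases before the start. A CCAAT was thus found in 4 of the 15 member windows, against 20.4% of the 35116 windows of all genes. An E2F-type word (TTTGGCGC, TTTCCCGC, TTTGCCGC or TTTCGCGC, on either strand) was found in 2 of the 15, against 1.4% of all windows. Also searched on both strands were the E-box CACGTG, in none of the member windows and in 3.9% of all, the GC box GGGCGG, in 5 and in 34%, and TTTGAA, in that of UMPS and in 5.7%. These motifs share no bases with each other in the windows shown. A match is a run of letters and not a measured binding site.

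All 9 enzymes were lower in OC and in OL+EV than in DMSO+EV, from moderately in the UMP branch to the very low levels of RRM2 and TYMS. In OL+EV the members kept between 1.94% (TYMS) and 66.5% (DHODH) of their mean DMSO+EV level, and in OC between 1.23% (RRM2) and 58.8% (UMPS). By limma on log2(FPKM + 1) with Benjamini-Hochberg adjustment over the 13775 genes tested, 9 of 9 passed the threshold of 0.05 as lower in OC, where 35.8% of all genes tested were lower, and 9 of 9 in OL+EV, where 23.5% were. Of these 9, RRM2 and TYMS passed the filter on low values (at least 1 FPKM in at least 3 libraries) only through DMSO+EV and so had to differ, and 7 of the 7 others were lower in each comparison. Both comparisons use the same DMSO+EV libraries. Between the treated groups, OC was lower than OL+EV in 5 of 9 members, CAD, DHODH, CTPS1, RRM2 and DUT, and higher in 0 of 9, where 34.8% of all genes tested were lower and 25.9% higher. In these bulk samples, fewer cells that express a gene and less RNA of it per cell cannot be told apart.

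**Figure D1:**
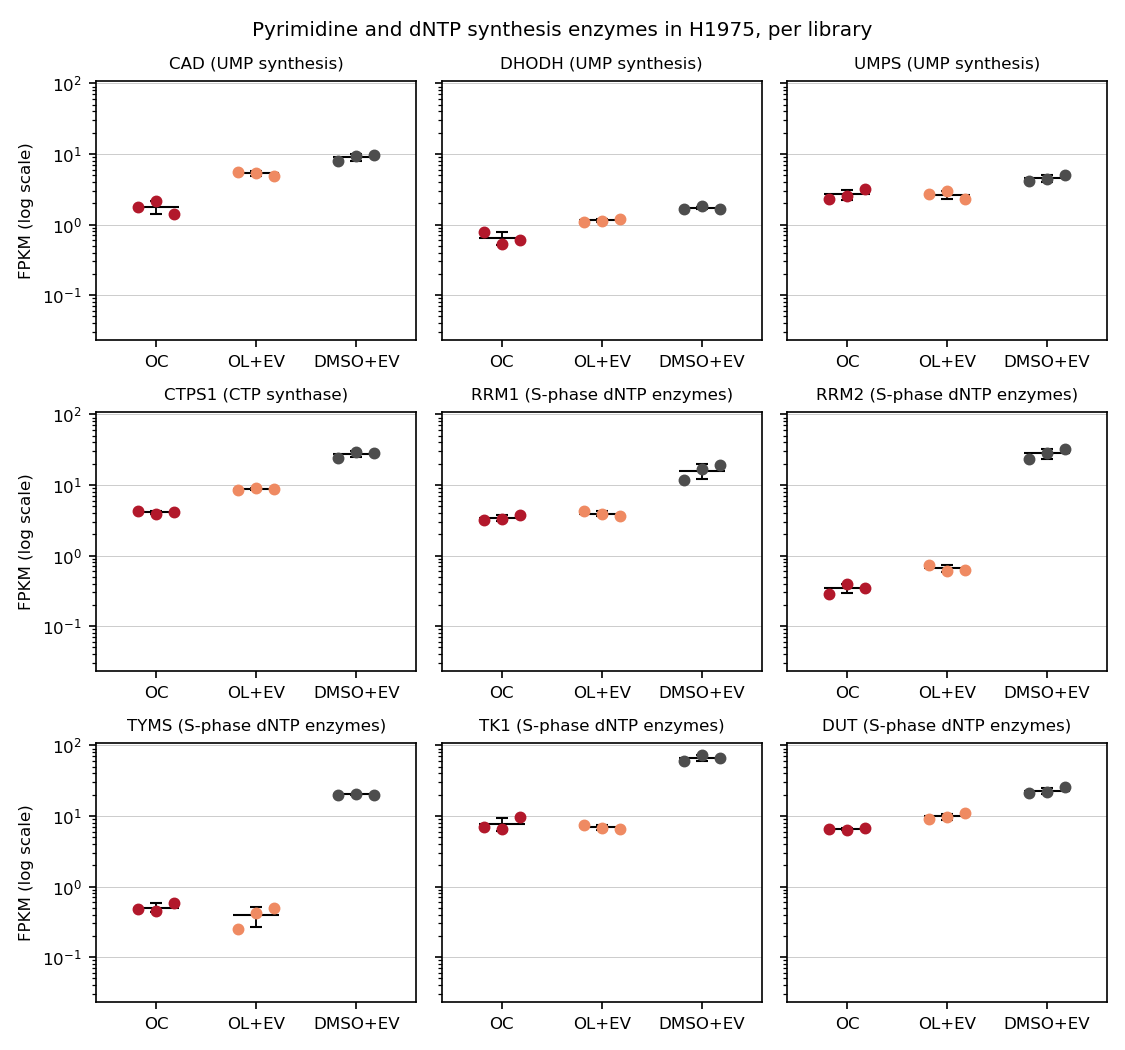
FPKM of each enzyme on a log scale in the 3 libraries of OC, OL+EV and DMSO+EV. Points are libraries, and bars give the mean and SD. In every panel the 3 DMSO+EV points lie above all 6 points of the treated groups, by far the most in RRM2 and TYMS, and CAD, DHODH, CTPS1, RRM2 and DUT also separate OC from OL+EV. RRM2 and TYMS passed the filter only through DMSO+EV and so had to separate from it. The share of all genes that separate in this way was not counted.

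CAD, the multifunctional enzyme that opens the pathway, was at 1.79, 2.19 and 1.42 FPKM in OC, 5.61, 5.36 and 4.91 FPKM in OL+EV and 7.86, 9.47 and 9.63 FPKM in DMSO+EV. The 3 groups did not overlap and formed a clear order, with OC lowest. Its log2 fold change was -1.84 ± 0.12 (SE) for OC against DMSO+EV (limma, adjusted p = 1.19e-08) and -0.66 ± 0.12 for OL+EV against DMSO+EV (adjusted p = 0.000364). Between the treated groups it was -1.18 ± 0.12 (adjusted p = 2.29e-06), the largest difference of any member between OC and OL+EV.

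DHODH, the mitochondrial step, was the scarcest member in DMSO+EV. It was at 0.795, 0.529 and 0.607 FPKM in OC, 1.08, 1.14 and 1.21 FPKM in OL+EV and 1.68, 1.80 and 1.68 FPKM in DMSO+EV. As for CAD, the groups were ordered without overlap, and OC kept 37.4% of the DMSO+EV mean. On the log2(FPKM + 1) scale, which understates the change of such low genes, the fold changes were -0.73 in OC and -0.34 in OL+EV against DMSO+EV (limma, adjusted p = 1.45e-05 and 0.00863) and -0.39 in OC against OL+EV (adjusted p = 0.00355).

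UMPS, which completes UMP, was lower in both treated groups by about the same amount. It was at 2.31, 2.57 and 3.16 FPKM in OC, 2.72, 2.97 and 2.28 FPKM in OL+EV and 4.12, 4.45 and 5.11 FPKM in DMSO+EV. Both treated groups lay below every DMSO+EV library and overlapped each other. The fold changes were -0.60 in OC and -0.61 in OL+EV against DMSO+EV (limma, adjusted p = 0.000481 and 0.000723). Between OC and OL+EV the difference was 0.01, with a 95% interval of -0.25 to 0.26 (adjusted p = 0.959), so a change of UMPS as large as that of CAD lies outside the interval.

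CTPS1, the CTP synthase known for its part in proliferating cells, fell further than the UMP enzymes. It was at 4.32, 3.93 and 4.11 FPKM in OC, 8.44, 9.10 and 8.85 FPKM in OL+EV and 24.5, 29.1 and 28.8 FPKM in DMSO+EV. Replicates lay close together and the 3 groups were well apart, with OC at 15.0% and OL+EV at 32.0% of the DMSO+EV mean. The fold change was -2.47 ± 0.09 in OC and -1.54 ± 0.09 in OL+EV against DMSO+EV, and -0.94 ± 0.09 in OC against OL+EV (limma, adjusted p = 4.93e-11, 1.77e-08 and 2.01e-06). Its paralog CTPS2 was at 4.67 ± 0.592 FPKM in OC, 4.49 ± 0.463 FPKM in OL+EV and 3.76 ± 0.595 FPKM in DMSO+EV (SD, n = 3) and passed the test in none of the comparisons. CTPS1 thus stood well above CTPS2 in DMSO+EV, whereas in OC the paralogs did not differ beyond their spread.

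The S-phase enzymes were led by RRM2, the regulatory subunit of ribonucleotide reductase. RRM2 was at 0.287, 0.397 and 0.352 FPKM in OC, 0.733, 0.608 and 0.625 FPKM in OL+EV and 23.4, 28.1 and 32.7 FPKM in DMSO+EV. In both treated groups no library reached 1 FPKM. The fold change was -4.42 ± 0.12 in OC and -4.12 ± 0.12 in OL+EV against DMSO+EV (limma, adjusted p = 1.43e-12 and 2.05e-11). OC lay below OL+EV in every library, but the difference, -0.30 (adjusted p = 0.0383), was near the threshold. The adjusted p was between 0.0513 and 0.111 without any 1 library of OC or OL+EV or without DMSO+EV replicate 2, and it ran from 0.00138 with a pseudocount of 0.1 to 0.407 with a pseudocount of 5.

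RRM1, the catalytic subunit of the same enzyme, fell less than RRM2 in mRNA. It was at 3.21, 3.29 and 3.80 FPKM in OC, 4.23, 3.90 and 3.67 FPKM in OL+EV and 11.7, 16.9 and 19.3 FPKM in DMSO+EV. The treated groups overlapped, and DMSO+EV varied more than for any other member, relative to its mean. The fold changes against DMSO+EV were -1.91 in OC and -1.75 in OL+EV (limma, adjusted p = 6.77e-08 and 3.95e-07). Between OC and OL+EV the difference was -0.15, with an interval of -0.47 to 0.16 (adjusted p = 0.372). RRM2B, the subunit that p53 is known to induce in place of RRM2, passed the test in no comparison and was at 2.37 ± 0.212 FPKM in OC, 2.31 ± 0.00747 FPKM in OL+EV and 1.83 ± 0.532 FPKM in DMSO+EV (SD, n = 3). In both treated groups it was more abundant than RRM2.

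TYMS, which methylates dUMP to dTMP and is the target of fluoropyrimidines, was at 0.476, 0.448 and 0.585 FPKM in OC, 0.252, 0.422 and 0.499 FPKM in OL+EV and 20.0, 20.7 and 19.9 FPKM in DMSO+EV. It was close to uniform in DMSO+EV and under 1 FPKM in all 6 treated libraries, which overlapped. The fold change was -3.82 ± 0.10 in OC and -3.93 ± 0.10 in OL+EV against DMSO+EV (limma, adjusted p = 1.23e-12 and 1.72e-11), and 0.11 between OC and OL+EV (interval -0.10 to 0.33, adjusted p = 0.328). The annotated span of TYMS, chr18:657653-673578 in GRCh38.p14, overlaps ENOSF1 and the noncoding TYMSOS. ENOSF1 was at 2.19 ± 0.436 FPKM in OC, 4.31 ± 0.449 FPKM in OL+EV and 4.25 ± 0.274 FPKM in DMSO+EV (SD, n = 3), above TYMS in both treated groups. The use of strand in counting is not given in the sources used here, so reads of these genes cannot be told apart at the low TYMS levels.

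TK1, the cytosolic kinase that salvages thymidine in S phase, was the most abundant member in DMSO+EV. It was at 6.94, 6.57 and 9.61 FPKM in OC, 7.45, 6.68 and 6.49 FPKM in OL+EV and 60.1, 72.1 and 67.2 FPKM in DMSO+EV. The treated groups overlapped, at 11.6% of the DMSO+EV mean in OC and 10.3% in OL+EV. The fold changes were -2.97 and -3.10 against DMSO+EV (limma, adjusted p = 1.65e-10 in OC and 3.57e-10 in OL+EV), with 0.13 between OC and OL+EV (interval -0.14 to 0.40, adjusted p = 0.381). TK2, the mitochondrial thymidine kinase, passed the test in no comparison, at 1.82 ± 0.278 FPKM in OC, 1.52 ± 0.130 FPKM in OL+EV and 1.60 ± 0.0715 FPKM in DMSO+EV (SD, n = 3).

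DUT, the dUTPase that keeps uracil out of DNA and supplies dUMP to TYMS, fell least of the S-phase enzymes. It was at 6.52, 6.23 and 6.72 FPKM in OC, 9.07, 9.57 and 11.0 FPKM in OL+EV and 20.9, 22.2 and 25.4 FPKM in DMSO+EV. The 3 groups did not overlap, as for CAD, DHODH and CTPS1. Its locus overlaps the noncoding DUT-AS1 in RefSeq, which was not analysed here. The fold changes were -1.67 in OC and -1.13 in OL+EV against DMSO+EV (limma, adjusted p = 5.96e-09 and 7.37e-07) and -0.53 in OC against OL+EV (adjusted p = 0.000458).

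**Figure D2:**
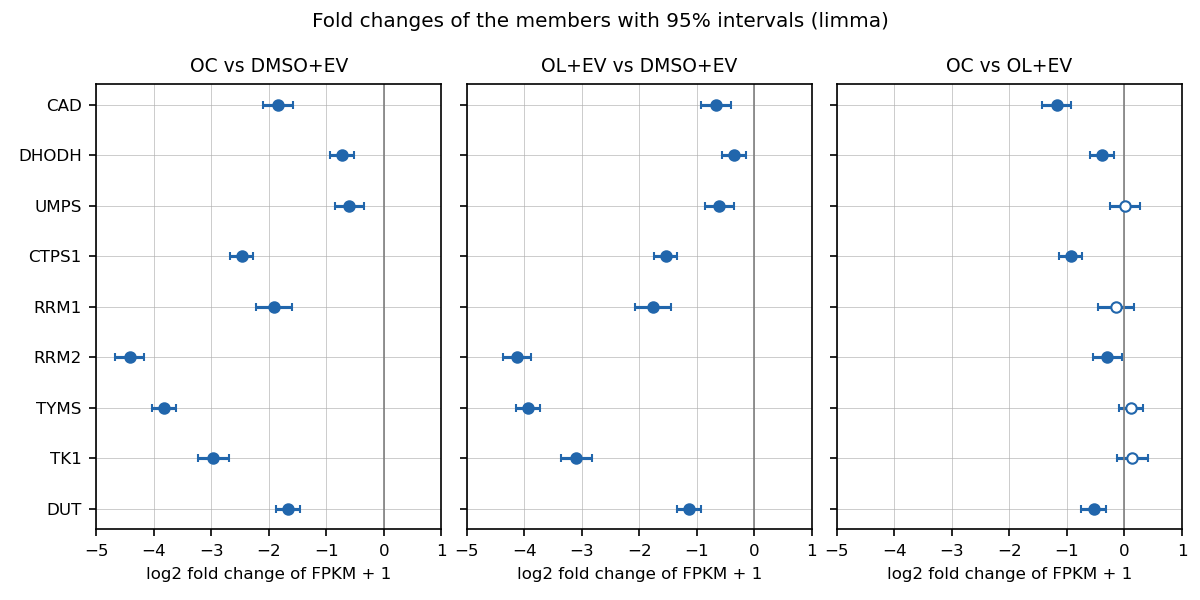
Log2 fold changes of FPKM + 1 for the 9 enzymes with 95% intervals from limma, in OC against DMSO+EV, OL+EV against DMSO+EV and OC against OL+EV. Filled points passed the adjusted threshold of 0.05. The S-phase enzymes RRM2, TYMS and TK1 lie farthest left in both comparisons with DMSO+EV, whereas CAD and CTPS1 lie farthest left in OC against OL+EV.

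The UMP enzymes and the S-phase enzymes differed in the size of their fold changes. In OL+EV against DMSO+EV, the fold changes of the UMP enzymes lay between -0.34 and -0.66, and those of the S-phase enzymes between -1.13 and -4.12, with no overlap. In OC against DMSO+EV, the UMP enzymes lay between -0.60 and -1.84 and the S-phase enzymes between -1.67 and -4.42, so that the branches overlapped, with CAD below DUT. The log2(FPKM + 1) scale shrinks the change of low genes most, and the UMP enzymes were the lowest members in DMSO+EV. In plain means, CAD in OC kept 20.0% of its DMSO+EV level, below RRM1 at 21.5% and DUT at 28.4%. UMPS at 58.8% and DHODH at 37.4% stayed above every S-phase enzyme. In OL+EV the UMP enzymes kept 58.2% to 66.5% and the S-phase enzymes 1.94% to 43.2%, again without overlap. Against OL+EV, the median fold change in OC was -0.39 for the UMP enzymes and -0.15 for the S-phase enzymes, where the median of all genes tested was -0.09. CAD, DHODH, CTPS1 and DUT, which differed between OC and OL+EV under every alternative tried in which they were tested, were not those with the largest falls against DMSO+EV, which were RRM2, TYMS and TK1.

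The order of the levels changed with the fall. In DMSO+EV, TK1 at 66.5 ± 6.02 FPKM stood above RRM2 at 28.1 ± 4.61 and CTPS1 at 27.5 ± 2.57, which did not differ beyond their spread, then DUT at 22.8 ± 2.31, TYMS at 20.2 ± 0.469 and RRM1 at 15.9 ± 3.88, and the UMP enzymes CAD at 8.98 ± 0.978, UMPS at 4.56 ± 0.501 and DHODH at 1.72 ± 0.0705 came last (SD, n = 3). In OC the highest were TK1 at 7.71 ± 1.66 and DUT at 6.49 ± 0.245 FPKM, within their spread, followed by CTPS1, RRM1, UMPS and CAD, with TYMS at 0.503 ± 0.0721 and RRM2 at 0.345 ± 0.0554 FPKM below DHODH at 0.644 ± 0.137 FPKM. In OL+EV the highest were DUT at 9.86 ± 0.975 and CTPS1 at 8.80 ± 0.333 FPKM, followed by TK1, CAD, RRM1 and UMPS, and again RRM2 and TYMS stood below DHODH at 1.14 ± 0.0648 FPKM. Every UMP enzyme was below every S-phase enzyme in DMSO+EV, and had a higher mean than RRM2 and TYMS in both treated groups, although DHODH and TYMS overlapped in OC.

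Plain ratios within a library do not depend on its scaling. The ratio of RRM2 to RRM1, the ribonucleotide reductase subunits, was 0.0893, 0.121 and 0.0926 in OC, 0.173, 0.156 and 0.170 in OL+EV and 2.01, 1.67 and 1.70 in DMSO+EV. TYMS to UMPS was 0.206, 0.174 and 0.185 in OC, 0.0927, 0.142 and 0.219 in OL+EV and 4.85, 4.65 and 3.89 in DMSO+EV. RRM2 to CAD was 0.161, 0.181 and 0.248 in OC, 0.131, 0.113 and 0.128 in OL+EV and 2.98, 2.97 and 3.39 in DMSO+EV. Each ratio was above 1 in all DMSO+EV libraries and below 0.25 in all treated libraries. The numerators, RRM2 and TYMS, were under 1 FPKM in every treated library and passed the filter only through DMSO+EV. The differences of these ratios from DMSO+EV are therefore no separate evidence. On the scale of log2(FPKM + 1) differences, RRM2 less RRM1 differed from DMSO+EV by -2.51 in OC and -2.37 in OL+EV. TYMS less UMPS differed by -3.22 in OC and -3.33 in OL+EV, and RRM2 less CAD by -2.58 in OC and -3.46 in OL+EV. RRM2 less RRM1 differed by -0.14 between OC and OL+EV, and by 0.00185 with a pseudocount of 5. RRM2 less CAD was 0.88 higher in OC than in OL+EV, without overlap, and TYMS less UMPS differed by 0.11, with overlap. With 3 libraries against 3, the two-sided exact permutation test cannot go below p = 0.1, the value it gave for all 9 differences except TYMS less UMPS between OC and OL+EV (exact p = 0.5). Adjusted over the 9, these were 0.1125 and 0.5, so none passed.

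**Figure D3:**
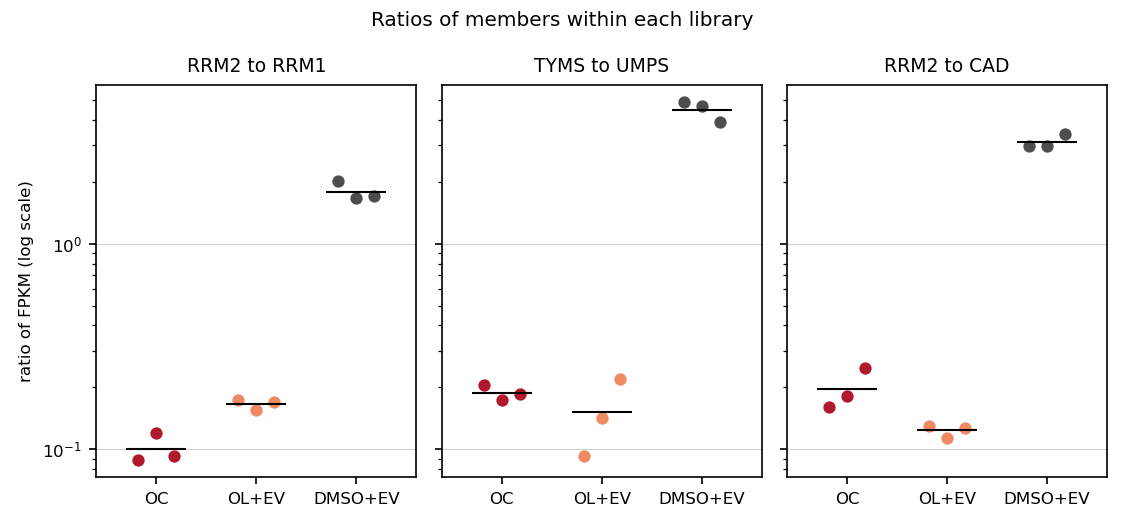
Ratios of FPKM within each library on a log scale, RRM2 to RRM1, TYMS to UMPS and RRM2 to CAD, in OC, OL+EV and DMSO+EV. Points are libraries and lines are means. All 3 ratios lie above 1 in DMSO+EV and below 0.25 in OC and OL+EV, and RRM2 to CAD is higher in OC than in OL+EV. The numerators, RRM2 and TYMS, passed the filter only through DMSO+EV.

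The genes with patterns most like those of RRM2 and CAD were not the same. Likeness was measured as the root mean square difference of log2(FPKM + 1), centred per gene, over the 9 libraries among 7701 other genes with a mean of at least 5 FPKM over all libraries. Nearest to RRM2 was CDC20, the activator of the anaphase-promoting complex (difference 0.16), at 3.55 FPKM in OC, 4.82 in OL+EV and 84.9 in DMSO+EV, followed by MYBL2, FOSL1, UBE2C and CDCA3 (0.20 to 0.24). Nearest to CAD was CS, the mitochondrial citrate synthase (difference 0.11), at 18.8 FPKM in OC, 37.9 in OL+EV and 60.2 in DMSO+EV, followed by IPO5, EIF3C, AHCY and FKBP4 (0.13 to 0.15). The measure depends on fold size, which differed between RRM2 and CAD, so genes this near to RRM2 could not also be this near to CAD.

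The other genes that handle pyrimidines did not all fall with the members. Of 9 genes, CTPS2 and the nucleotide kinases, 2 were higher and 4 lower in OC than in DMSO+EV, and 1 was higher and 3 lower in OL+EV, where 33.1% of all genes tested were higher and 35.8% lower in OC, and 29.0% higher and 23.5% lower in OL+EV. DTYMK, which phosphorylates the dTMP that TYMS and TK1 make, was at 6.49, 6.71 and 8.12 FPKM in OC, 8.46, 8.61 and 9.38 FPKM in OL+EV and 39.2, 47.0 and 47.4 FPKM in DMSO+EV. Its fold change was -2.49 in OC and -2.21 in OL+EV (limma, adjusted p = 1.81e-10 and 1.86e-09). NME1, a nucleoside diphosphate kinase, averaged 7.14 ± 1.72 FPKM in OC, 18.6 ± 1.28 FPKM in OL+EV and 110 ± 7.62 FPKM in DMSO+EV (SD, n = 3), and was also lower in OC than in OL+EV (log2 fold change -1.29, adjusted p = 2.56e-06). NME2 was lower in OC than in DMSO+EV (-1.81) and in OL+EV (-1.14), but it is a near-identical neighbour of NME1, so how reads were split between them is uncertain. NME3 was higher in OL+EV than in DMSO+EV by 1.21. CMPK2, a mitochondrial UMP-CMP kinase known as an interferon-induced gene, was at 1.79, 1.32 and 1.54 FPKM in OC and is listed at 0 in all libraries of OL+EV and DMSO+EV. It passed the filter only through OC and so had to differ, and of the 8 others 1 was higher and 4 lower in OC than in DMSO+EV. Against OL+EV, 2 of the 9 were higher and 5 lower in OC, where 25.9% of all genes were higher and 34.8% lower. Without CMPK2, which had to differ here too, 1 was higher and 5 were lower of 8. The number higher in OL+EV than in DMSO+EV was 3 without DMSO+EV replicate 3 and 2 without OL+EV replicate 3.

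The S-phase enzymes were lower than in DMSO+EV in both OC and OL+EV. SAMHD1, the enzyme that hydrolyses deoxynucleotide triphosphates, was higher than in DMSO+EV in OC and was not called in OL+EV. It was at 60.4, 60.1 and 56.7 FPKM in OC, 2.91, 2.97 and 2.24 FPKM in OL+EV and 2.06, 2.29 and 2.66 FPKM in DMSO+EV. OC lay far above the other groups, which overlapped. SAMHD1 is also abundant in myeloid cells, and the summed level of 4 leukocyte markers was 2.27 to 4.25 FPKM in OC, 1.07 to 2.25 FPKM in OL+EV and 1.44 to 1.99 FPKM in DMSO+EV, nearly all of it CD14. The pan-leukocyte marker PTPRC was at most 0.0352 FPKM in any library, and CD3E is listed at 0 in all of OC. The log2 fold change was 4.17 ± 0.10 in OC against DMSO+EV (limma, adjusted p = 1.02e-12) and 4.02 ± 0.10 in OC against OL+EV (adjusted p = 1.85e-12), and 0.15 in OL+EV against DMSO+EV (adjusted p = 0.246). Among the 8 genes of dNTP supply and control outside the members, 2 were higher and 5 lower in OC than in DMSO+EV, where 33.1% of all genes were higher and 35.8% lower, and 0 were higher and 5 lower in OL+EV, where 29.0% were higher and 23.5% lower. The lower ones included DCTPP1, a dCTP pyrophosphatase (-0.90 in OC and -0.91 in OL+EV), and SHMT1, a source of one-carbon units for TYMS, in OC (-0.90). Against OL+EV, OC was higher in 2, among them SAMHD1, and lower in 2, among them SHMT1 (-0.35), where 25.9% of all genes were higher and 34.8% lower. The count of genes higher in OC than in DMSO+EV was 1 without DMSO+EV replicate 1 or 2 or OC replicate 2 or 3, and the counts between OC and OL+EV were 1 lower without OC replicate 1 or 2 or OL+EV replicate 1, and 1 higher without OL+EV replicate 1.

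Of the genes of pyrimidine breakdown, NT5C3A, TYMP and DPYD were the ones higher in OC. Of 10 listed genes 6 were tested, and in OC 3 of these were higher and 3 lower, both against DMSO+EV, where 33.1% of all genes were higher and 35.8% lower, and against OL+EV, where 25.9% were higher and 34.8% lower. DPYD passed the filter only through OC and so had to differ, and of the 5 others 2 were higher and 3 lower in both comparisons. NT5C3A, a nucleotidase of CMP and UMP, was at 109, 118 and 138 FPKM in OC, 6.69, 5.86 and 6.25 FPKM in OL+EV and 5.84, 5.53 and 7.89 FPKM in DMSO+EV. TYMP, the thymidine phosphorylase, was at 252, 245 and 317 FPKM in OC, 47.6, 51.6 and 55.5 FPKM in OL+EV and 30.8, 27.9 and 21.6 FPKM in DMSO+EV. DPYD, which degrades uracil and thymine, was at 3.90, 4.12 and 3.96 FPKM in OC, 0.599, 0.564 and 0.447 FPKM in OL+EV and 0.583, 0.748 and 0.852 FPKM in DMSO+EV. NT5C3A and TYMP were higher in every OC library than in any other library, and so was DPYD, which had to differ. How many of all genes separate in this way was not counted. The log2 fold changes in OC against DMSO+EV were 4.05, 3.30 and 1.53 for NT5C3A, TYMP and DPYD, in that order. Against OL+EV they were 4.07, 2.37 and 1.70. In OC against DMSO+EV the adjusted p by limma was 7.46e-12 for NT5C3A and 1.34e-10 for TYMP. In OL+EV against DMSO+EV 1 of the 6 was higher and 2 lower, where 29.0% of all genes were higher and 23.5% lower, and TYMP was higher by 0.93 (adjusted p = 7.63e-05). UPP1, a uridine phosphorylase, was lower than in DMSO+EV in OC (-1.69) and OL+EV (-1.35), and so was NT5C, in OC (-0.92) and OL+EV (-0.27, limma adjusted p = 0.0400). The number of genes called lower in OL+EV was 1 rather than 2 without DMSO+EV replicate 1 or 2, OC replicate 2 or any replicate of OL+EV.

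**Figure D4:**
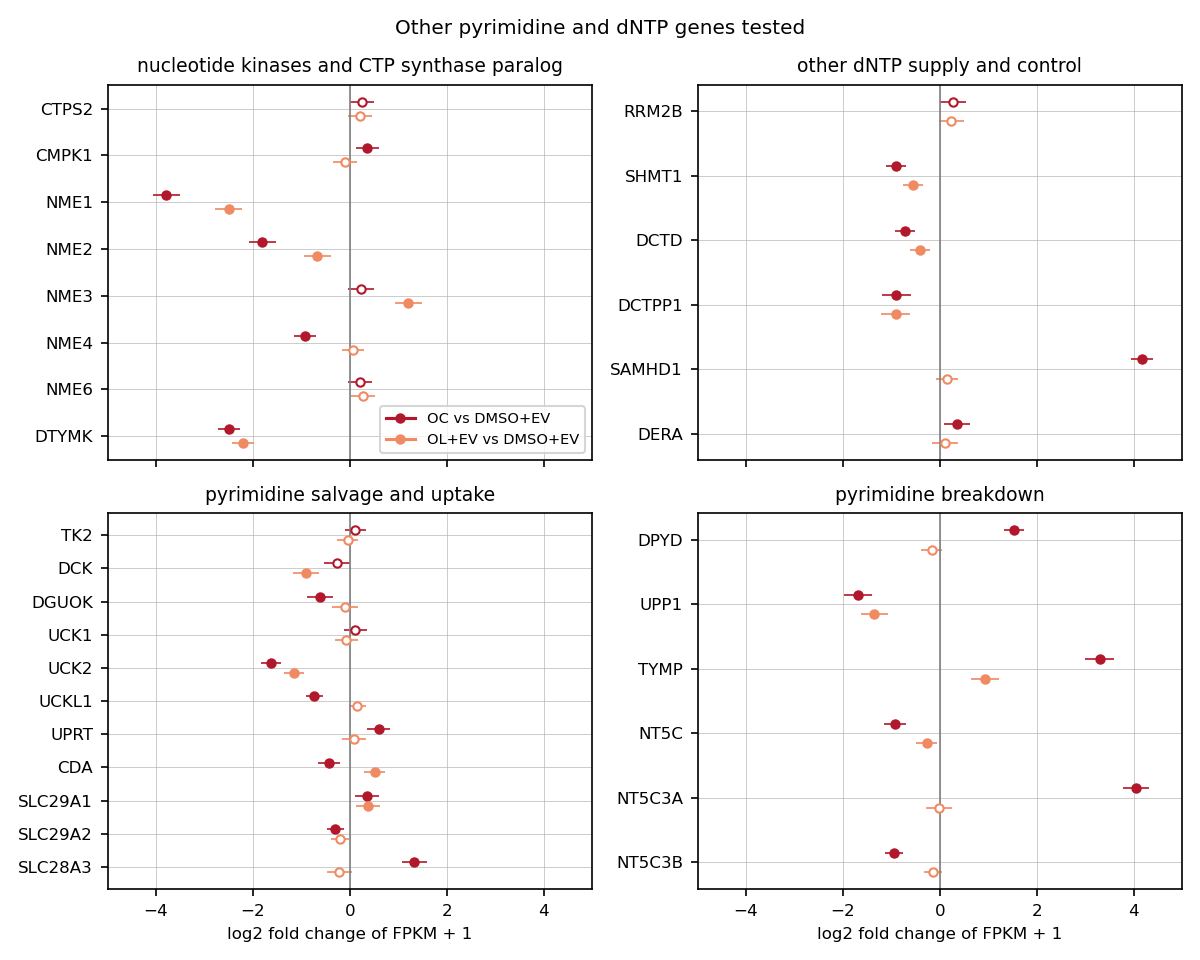
Log2 fold changes of FPKM + 1 with 95% intervals in OC and OL+EV against DMSO+EV for tested genes of 4 lists, nucleotide kinases with CTPS2, other dNTP genes, salvage and uptake, and breakdown. Filled points passed the adjusted threshold of 0.05, and CMPK2, listed at 0 in OL+EV and DMSO+EV, is left out. SAMHD1, NT5C3A and TYMP lie far right in OC, and NME1 and DTYMK lie far left in both groups.

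Among the 11 salvage and uptake genes, 3 were higher and 5 lower in OC than in DMSO+EV, and 2 were higher and 2 lower in OL+EV. The shares of all genes tested were 33.1% higher and 35.8% lower in OC, and 29.0% higher and 23.5% lower in OL+EV. UPRT, 1 of the 3 higher in OC, passed the filter only through OC and so had to differ, which leaves 2 higher and 5 lower of 10. UCK2, a uridine-cytidine kinase, was lower in OC (-1.63) and OL+EV (-1.15) than in DMSO+EV, from a DMSO+EV mean of 12.0 FPKM. DCK, the deoxycytidine kinase, was lower in OL+EV (-0.90, adjusted p = 4.12e-05 by limma), and UCKL1 was lower in OC, both against DMSO+EV (-0.73) and against OL+EV (-0.89). CDA, the cytidine deaminase, averaged 67.0 ± 4.24 FPKM in OC, 129 ± 7.21 FPKM in OL+EV and 90.9 ± 10.0 FPKM in DMSO+EV (SD, n = 3), so it was lower in OC than in OL+EV (-0.94) and higher in OL+EV than in DMSO+EV (0.51). SLC28A3, a concentrative nucleoside transporter, was at 9.48, 9.31 and 7.70 FPKM in OC, 2.05, 2.09 and 2.96 FPKM in OL+EV and 2.69, 2.88 and 3.12 FPKM in DMSO+EV, a rise in OC of 1.33 over DMSO+EV and 1.55 over OL+EV. Against OL+EV, OC was higher in 3 and lower in 4 of the 11, near the 25.9% and 34.8% of all genes. Without UPRT, which had to differ here too, 2 were higher and 4 lower of 10. Without DMSO+EV replicate 1 or OL+EV replicate 1 or 2, the count higher in OL+EV than in DMSO+EV was 1.

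The regulators and the replication genes that the S-phase enzymes are known to accompany fell in both treated groups. Of 7 regulators tested, 6 were lower and 0 higher in each treated group than in DMSO+EV, where 35.8% of all genes were lower in OC and 23.5% in OL+EV. E2F1 and E2F2 passed the filter only through DMSO+EV and so had to differ, and 4 of the 5 others were lower in each treated group. E2F1 was at 0.510, 0.455 and 0.438 FPKM in OC, 0.820, 0.708 and 0.620 FPKM in OL+EV and 10.3, 9.89 and 9.50 FPKM in DMSO+EV (log2 fold change -2.89 in OC and -2.67 in OL+EV against DMSO+EV). The atypical E2F8 was lower in OC (-2.20) and OL+EV (-2.26), and E2F2 was lower in OC (-1.29) and OL+EV (-1.34). MYC was at 6.60, 6.65 and 6.98 FPKM in OC, 10.2, 10.2 and 9.57 FPKM in OL+EV and 23.5, 25.6 and 27.0 FPKM in DMSO+EV, with no overlap of the 3 groups. Its fold change was -1.77 in OC against DMSO+EV (limma, adjusted p = 7.26e-10) and -0.50 in OC against OL+EV (adjusted p = 0.000228). E2F1 was lower in OC than in OL+EV (-0.22, adjusted p = 0.0492), and without DMSO+EV replicate 2 or any 1 library of OC or OL+EV the number of regulators lower was 1 rather than 2.

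All 14 replication genes listed were lower in OC and in OL+EV than in DMSO+EV, where 35.8% of all genes were lower in OC and 23.5% in OL+EV. CDC6, GINS2 and RFC3 passed the filter only through DMSO+EV and so had to differ, and 11 of the 11 others were lower. PCNA, the sliding clamp, fell by 2.50 in OC and by 2.76 in OL+EV, and the helicase subunits followed, with log2 fold changes of -2.54 for MCM2 and -2.61 for MCM5 in OC, and of -2.94 for MCM2 and -2.59 for MCM5 in OL+EV. Between the treated groups, 3 of the 14 were higher and 2 lower in OC than in OL+EV, where 25.9% of all genes were higher and 34.8% lower. MCM2 (0.40) and the nuclease FEN1 (0.48) were higher, and MCM7 was lower (-0.53). Without OL+EV replicate 3 the number higher was 1. With median-of-ratios rescaling, which moved the median gene by 0.11 in OC against OL+EV, the numbers higher in OC than in OL+EV were 5 of the 14 replication genes, 5 of the 11 salvage genes, 3 of the 8 dNTP genes and 1 of the 7 regulators, and 0 dNTP genes and 1 regulator were lower. With the same rescaling, 4 of the 9 genes of the kinase list were higher in OC than in DMSO+EV.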

How the data were processed

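RNA-seq of H1975 gave 9 libraries, 3 per group as labelled. The deposited table holds, by symbol, values read here as FPKM made by the authors. The submitters' processing notes name STAR, Bowtie2 2.1.0 and edgeR with build hg38, without their roles, and the counting method is not given in the sources used here. Here log2(FPKM + 1) was fitted with limma 3.58.1 (R 4.3.3, trend, robust), in 1 fit of 13775 genes at 1 FPKM or more in at least 3 libraries, with Benjamini-Hochberg adjustment at 0.05. The fit was tested on simulated data. Ratios used exact permutation tests (scipy 1.17.1, Python 3.11.15), and matplotlib 3.10.9 drew the figures. Promoter windows and positions come from RefSeq, in which all 9 members matched. Genes named outside the members were up to 3 called genes per list and comparison with the largest absolute fold change; RRM2B, TK2, CTPS2 and ENOSF1 were named beside a member, and UPRT, CDC6, GINS2 and RFC3, after their values were seen, for reaching the filter in 1 group only. Some genes that the rule named are left out of the text and plots. The members and lists were chosen with earlier results of these data known. Alternatives were 2 pseudocounts, 2 filters, 3 scalings, no trend, the compared groups only, a replicate block and leaving out each replicate.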

Additional observations from a re-analysis of the deposited data

How the results depend on the processing

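The count of members called kept within 1.5 times in 114 of 114 values over all alternatives. These values include the counts of members higher, which were 0 throughout, and fits without a library of the group not compared. There were 7 to 9 lower in OC and in OL+EV against DMSO+EV (7 with a filter at 5 FPKM, which leaves fewer members tested) and 4 or 5 lower in OC against OL+EV. Of 507 member fold changes under alternatives, 491 kept direction and call, 13 lost the call, all of RRM2 between OC and OL+EV, and 3 reversed, all uncalled and between OC and OL+EV, where leaving out 1 replicate gave -0.0836 to 0.0817 for UMPS and -0.0196 to 0.224 for TK1. RRM2 less RRM1 between OC and OL+EV went to 0.00185 with a pseudocount of 5, and the cause was not tested. Of 684 list counts, 56 moved by more than 1.5 times. Pseudocounts set the size of the folds: RRM2 in OC against DMSO+EV ran from -5.98 to -2.62 over the alternatives. Median-of-ratios rescaling moved the median gene by 0.11 in OC against OL+EV, and calls there were 4438 higher and 3695 lower, against 3568 higher and 4788 lower as deposited. CAD was at -1.07 and CTPS1 at -0.82 with that rescaling, both still called. With a replicate block, 9, 9 and 4 members were lower in OC against DMSO+EV, OL+EV against DMSO+EV and OC against OL+EV, and RRM2 had an adjusted p of 0.0532 in the last by limma. Replicate numbers did not pair the libraries: deviations of same-numbered libraries correlated at -0.31 to 0.04, and DMSO+EV replicate 1 correlated best with OL+EV replicate 3 (0.33). Depth is unknown, which limits what can be said of RRM2 and TYMS under 1 FPKM.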
